A study of Homo sapiens with 13 samples.

Results

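The integrin and laminin genes are the receptors and the ligands of the contact between a cell and its basement membrane. They were taken by symbol from the RefSeq coding genes of chromosomes 1 to 22 and X on GRCh38: 18 integrin alpha genes (ITGA with a number or the letters D, E, L, M, V or X, and ITGA2B), 8 integrin beta genes (ITGB1 to ITGB8) and 12 laminin genes (LAMA, LAMB or LAMC with a number), 38 of 19974 coding genes in all. The rule uses gene symbols and no measured value, but the set was chosen with earlier results of these data known. The data are CUT&RUN peak lists, in which an antibody directs a nuclease to a chromatin protein or histone mark so that the DNA beside it is released and sequenced. The cells were PANC1, a human line from a carcinoma of the pancreatic duct, in a stable form that expresses BRG1 (BRG oe in the labels). The 12 libraries used cover 3 proteins (BRG1, SMARCC1, NRF2) and 3 histone marks (H3K27ac, H3K4me1, H3K4me3), with 2 replicates of each, and all 12 are from this BRG1-expressing line. The labels do not say whether the stable line is a clone or a pool, nor whether replicates were separate cultures. With 1 condition, the data describe where peaks lie and allow no test of an effect of BRG1.

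An integrin is a heterodimer of 1 alpha and 1 beta subunit that binds the matrix outside the cell and links it to actin or keratin filaments inside. A laminin is a heterotrimer of an alpha, a beta and a gamma chain, and it forms the sheet of the basement membrane beneath epithelia. LAMA3 and LAMB3 are chains of the laminin of epithelial anchoring contacts, the hemidesmosomes, where ITGA6 paired with ITGB4 is its receptor. BRG1 (SMARCA4) is the ATPase of the BAF chromatin remodelling complexes, SMARCC1 is a core subunit of them, and NRF2 (NFE2L2) is a transcription factor of antioxidant genes. H3K4me3 marks promoters, H3K4me1 marks enhancers, and H3K27ac marks active promoters and enhancers.

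The promoters of some members at both ends of the range of promoter marks are printed here as examples. Each is the 250 bases before the outermost tabled gene start, read 5′ to 3′ on the gene's strand, from RefSeq with build GRCh38.p14. The first 5 are the members with the highest H3K4me3 among those with both H3K4me3 and H3K27ac at a tabled start: ITGA5 (chr12:54419267-54419516, minus strand), ITGAV (chr2:186589806-186590055, plus strand), ITGB1 (chr10:32958231-32958480, minus strand), LAMC1 (chr1:183023170-183023419, plus strand) and LAMB1 (chr7:108003162-108003411, minus strand). LAMB3 (chr1:209652426-209652675, minus strand) was added after its values were seen, because it was the 1 member with BRG1 at its start. The BRG1 site itself, at chr1:209652846-209653537, lies outside the printed bases. The last 3 carried no mark at the start: ITGA10 (chr1:145910051-145910300, minus strand), ITGA11 (chr15:68432164-68432413, minus strand) and ITGA2B (chr17:44389650-44389899, minus strand). Capitals mark matches, on either strand, to 6 motifs whose letters follow below the sequences.
ITGA5: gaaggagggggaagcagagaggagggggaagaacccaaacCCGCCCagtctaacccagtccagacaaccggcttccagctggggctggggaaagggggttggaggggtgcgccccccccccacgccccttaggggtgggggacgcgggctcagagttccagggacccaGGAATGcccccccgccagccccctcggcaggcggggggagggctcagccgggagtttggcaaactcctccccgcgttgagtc
ITGAV: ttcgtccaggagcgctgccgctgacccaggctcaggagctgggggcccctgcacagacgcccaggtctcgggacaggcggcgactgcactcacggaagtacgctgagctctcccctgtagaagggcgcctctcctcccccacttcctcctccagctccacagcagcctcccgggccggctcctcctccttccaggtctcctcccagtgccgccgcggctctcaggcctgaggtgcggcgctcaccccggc
ITGB1: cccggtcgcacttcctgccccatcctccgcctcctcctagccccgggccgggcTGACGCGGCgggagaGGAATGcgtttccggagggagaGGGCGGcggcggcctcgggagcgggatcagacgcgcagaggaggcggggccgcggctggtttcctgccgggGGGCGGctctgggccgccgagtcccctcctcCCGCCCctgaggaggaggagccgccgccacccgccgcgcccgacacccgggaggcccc
LAMC1: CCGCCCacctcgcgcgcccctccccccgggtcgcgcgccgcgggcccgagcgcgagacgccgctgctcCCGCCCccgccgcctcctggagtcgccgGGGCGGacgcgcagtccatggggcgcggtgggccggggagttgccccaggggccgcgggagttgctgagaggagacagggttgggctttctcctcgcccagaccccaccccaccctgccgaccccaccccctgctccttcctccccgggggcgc
LAMB1: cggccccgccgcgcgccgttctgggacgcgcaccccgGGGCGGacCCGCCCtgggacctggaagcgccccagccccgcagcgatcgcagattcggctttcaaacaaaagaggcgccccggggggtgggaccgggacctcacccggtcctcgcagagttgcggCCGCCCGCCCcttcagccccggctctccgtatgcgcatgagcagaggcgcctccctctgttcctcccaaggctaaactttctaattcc
LAMB3: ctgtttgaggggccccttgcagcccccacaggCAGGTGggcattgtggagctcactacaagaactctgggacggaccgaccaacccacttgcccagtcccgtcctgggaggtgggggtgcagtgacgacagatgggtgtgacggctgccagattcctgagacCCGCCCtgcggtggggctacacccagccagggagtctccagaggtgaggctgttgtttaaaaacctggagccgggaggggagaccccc
ITGA10: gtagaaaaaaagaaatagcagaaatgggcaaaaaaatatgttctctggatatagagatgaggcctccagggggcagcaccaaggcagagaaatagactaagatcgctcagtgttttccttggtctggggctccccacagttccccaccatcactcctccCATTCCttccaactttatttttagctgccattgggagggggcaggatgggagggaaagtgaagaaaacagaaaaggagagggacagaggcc
ITGA11: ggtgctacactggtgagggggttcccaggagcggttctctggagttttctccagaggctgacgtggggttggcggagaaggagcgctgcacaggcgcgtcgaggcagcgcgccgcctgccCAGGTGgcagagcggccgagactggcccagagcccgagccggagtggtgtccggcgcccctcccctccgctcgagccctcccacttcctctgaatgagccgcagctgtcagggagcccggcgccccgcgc
ITGA2B: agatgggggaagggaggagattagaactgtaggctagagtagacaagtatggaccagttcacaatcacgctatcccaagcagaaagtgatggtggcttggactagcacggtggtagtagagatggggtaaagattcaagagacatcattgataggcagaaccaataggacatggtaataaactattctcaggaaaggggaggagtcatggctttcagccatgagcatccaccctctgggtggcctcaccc

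The marked promoters were richer in G and C. Of the 38 genes, 26 had a start in the promoter table, and 13 of these carried H3K4me3 there. The 13 marked promoters had a median of 70.4% G and C and 18 CpG dinucleotides in 250 bases, and the 13 unmarked ones 53.2% and 6. Over the 15812 coding genes with a tabled promoter, the medians were 65.6% and 22 for the 9821 with H3K4me3 and 54.8% and 5 for the 5991 without it, the same direction as among the members. Single genes departed from it. ITGA4, ITGA8 and ITGA11, with 25, 19 and 23 CpG dinucleotides, carried no H3K4me3 region, while LAMA4, with 5, carried it.

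The 6 motifs were searched on both strands, and shares of all 15812 tabled promoters in windows of the same length stand beside those of the members. The GC box, GGGCGG, was in 13 of 26 member promoters (50%), against 55.8% of all, and the printed ITGB1, LAMC1 and LAMB1 promoters hold several. The E-box, CAGGTG, was in 7 (26.9%), against 17.1%, and among the printed ones in LAMB3 and ITGA11. The TEAD motif, CATTCC, occurred in ITGA10, ITGA5, ITGB1 and LAMA2 (15.4%, against 10.2%). The core of the antioxidant response element, which NRF2 reads, was searched as TGACNNNGC and occurred in ITGA1, ITGB1 and ITGB5 (11.5%, against 11.6%). The AP-1 motif, TGANTCA, occurred in LAMA3 alone (3.85%, against 5%). The TATA box, TATAAA, occurred in ITGA6 alone (3.85%, against 9.36%). The AP-1 and antioxidant letters can overlap, but no member promoter held both. A match describes letters only, and a window without one says nothing of the factor.

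The peak lists held 3213 and 6610 peaks for BRG1, 1538 and 919 for NRF2 and 600 and 572 for SMARCC1 (replicates 1 and 2), against 17752 to 37283 in the libraries of the 3 marks. Fold enrichment is the authors' own value for each peak, given below as replicate 1 and replicate 2. A region is called reproducible where overlapping peaks of both replicates form it. Read depth is unknown, so a gene without a peak may have one below the reach of its library. Of 8 epithelial markers, 5 had H3K4me3 at the start (MUC1, KRT18, KRT19, SOX9, EPCAM), against 59.1% of all coding genes, and 5 had H3K27ac there (MUC1, KRT8, KRT18, KRT19, SOX9), against 44.7%, so these shares do not stand apart from the background. Among the markers of other cell types, H3K4me3 was at 1 of 5 leukocyte starts (CD14) and at 0 of 3 each for platelet, endothelium, fibroblast and muscle, and H3K27ac was at none of these 17. KRT7 and CDH1, which are also defining genes of this epithelium, had no mark at the start.

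The starts of the integrin subunits ITGA2, ITGA3, ITGA6 and ITGB4, known from epithelia, and of the chains LAMB1, LAMB2, LAMC1 and LAMA5 carried H3K4me3. ITGB6, another epithelial subunit, and the leukocyte subunits ITGAD, ITGAE, ITGAL, ITGAM, ITGAX, ITGB2 and ITGB7 did not. The epithelial hemidesmosome chains LAMA3 and LAMB3 also lacked H3K4me3 at a tabled start. ITGA7, known from muscle, and LAMA4, known from vessel walls, carried it, so H3K4me3 did not separate epithelial members from the others. H3K4me3 lay within 1000 bp of the start of 17 integrin and laminin genes (44.7%), against 59.1% of all coding genes, and H3K27ac at 14 (36.8%), against 44.7%. Both marks together were at 12 starts (31.6%), against 43.9%, and no mark was at 17 (44.7%), against 37.8%. H3K4me3 without H3K27ac was at 5 (13.2%: ITGA1, ITGA6, ITGA7, ITGB4, ITGB8), against 15.1%. H3K4me1 was at 4 starts (10.5%), against 5.52%. The shares with H3K4me3, with H3K27ac and with both were below those of all coding genes. Where a start was tabled it was used, and for the 12 genes without one (among them ITGA3, ITGA7, ITGA9, ITGAD, ITGAL, ITGAX, ITGB2, ITGB3, ITGB4, LAMA1 and LAMC3) either end of the gene was. The values at a start are the highest peak of each replicate within 1000 bp of it.

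Among the laminin receptors, ITGA3 and ITGA6, alpha subunits of epithelial cells, and ITGA7, the laminin receptor subunit of muscle, all had H3K4me3 at the start. By the mean of both replicates ITGA3 had the highest H3K4me3 of the members at a start, with fold enrichments of 34.1 and 35.3, close to ITGA5 below, and an H3K27ac fold enrichment of 6.4 and 6.87 beside it. ITGA6 had 13.2 and 17.6 for H3K4me3. Its H3K27ac peak within 1000 bp was in replicate 1 only, at 2.36, but a reproducible H3K27ac region with 4.52 and 3.19 lay inside its H3K4me3 region further along. ITGA7 had an H3K4me3 fold enrichment of 4.58 and 5.91 in a region that also covers the start of its neighbour BLOC1S1, so its mark cannot be told apart from the neighbour's. ITGB4, the beta partner of ITGA6, was low, at 4.22 and 4.93, with an H3K27ac peak at the start in replicate 2 only, at 3.25.

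The collagen receptor subunits split. ITGA2, of epithelium and platelets, had 13.9 and 13.9 for H3K4me3 and 4.92 and 3.47 for H3K27ac at the start. ITGA1 had 6.42 and 7.11 for H3K4me3, in a region that is also at the start of PELO, a gene inside its span, and no H3K27ac peak. A much higher H3K4me3 region, at 37.1 and 35.8 the highest of the member windows by the mean of both replicates, lay in the spans of both ITGA1 and PELO 13300 bp from the ITGA1 start. ITGA10 and ITGA11, known from cartilage and fibroblasts, had no reproducible mark at the start.

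The fibronectin and vitronectin receptor subunits ITGA5 and ITGAV were among the most marked. H3K4me3 reached 38.4 and 28.9 at ITGA5 and 26.7 and 21.2 at ITGAV, with H3K27ac at 4.03 and 4.68 for ITGA5 and 4.41 and 6.07 for ITGAV. ITGB1, the beta subunit that pairs with most of these alphas, had 20.1 and 23.9 for H3K4me3 and 4.24 and 5.0 for H3K27ac, and its H3K4me3 region was the widest of the members at 4952 bp. The other beta partners of ITGAV were lower: ITGB5 had 7.61 and 14.1 for H3K4me3, ITGB3 6.50 and 11.7 and ITGB8 4.60 and 7.81. ITGB5 and ITGB3 also had H3K27ac, at 4.66 and 4.24 for ITGB5 and 2.82 and 3.52 for ITGB3. ITGB8 had an H3K27ac peak in each replicate, at 3.44 and 3.37, but the peaks did not overlap. ITGB6, the epithelial partner of ITGAV, had no mark at its start.

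ITGAD, ITGAE, ITGAL, ITGAM, ITGB2 and ITGB7, the subunits of white blood cells, and ITGA2B, a subunit of platelets, had no reproducible region of any mark there. ITGAX, a subunit of macrophages and dendritic cells, had H3K4me1 at 1 end, at 4.79 and 3.18, and no other mark. ITGA4, an alpha subunit of leukocytes, its relative ITGA9, and ITGA8, of mesenchyme, were unmarked as well. Of the 8 leukocyte and platelet markers above, CD14 alone carried H3K4me3.

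The laminin chains of general basement membranes carried both promoter marks. LAMC1, the gamma chain of most laminins, had 15.6 and 23.1 for H3K4me3 and 7.74 and 6.54 for H3K27ac. LAMB1 had 18.8 and 18.2 for H3K4me3, 5.21 and 5.15 for H3K27ac and, alone among the members, H3K4me1 beside both, at 3.94 and 3.46. LAMB2 had 14.9 and 15.2 for H3K4me3 and LAMA5, the alpha chain of adult epithelia and vessels, 13.7 and 12.7. LAMA4, the alpha chain of vessel walls, had 10.8 and 11.9, with H3K27ac at 6.08 and 5.20. H3K27ac at the starts of LAMB2 and LAMA5 was 7.74 and 6.44 for LAMB2 and 6.29 and 3.56 for LAMA5. LAMA1, of embryonic membranes, LAMA2, of muscle, LAMB4 and LAMC3 had no mark.

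The hemidesmosome laminin chains LAMA3 and LAMB3 had another pattern, with no reproducible H3K4me3 region at a tabled start. LAMB3 had H3K4me1 at 3.42 and 4.0 and H3K27ac at 3.34 and 2.92. LAMA3 had H3K4me1 alone at its tabled start, at 3.36 and 3.78. The table gives LAMA3 a start inside its span only, and at the lower end of the span lay an H3K4me3 region of low fold enrichment, at 4.51 and 5.64. H3K27ac without H3K4me3 at the start, as in LAMB3, was found for 2 of 38 members (5.26%) and for 0.836% of all coding genes.

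**Figure D1:**
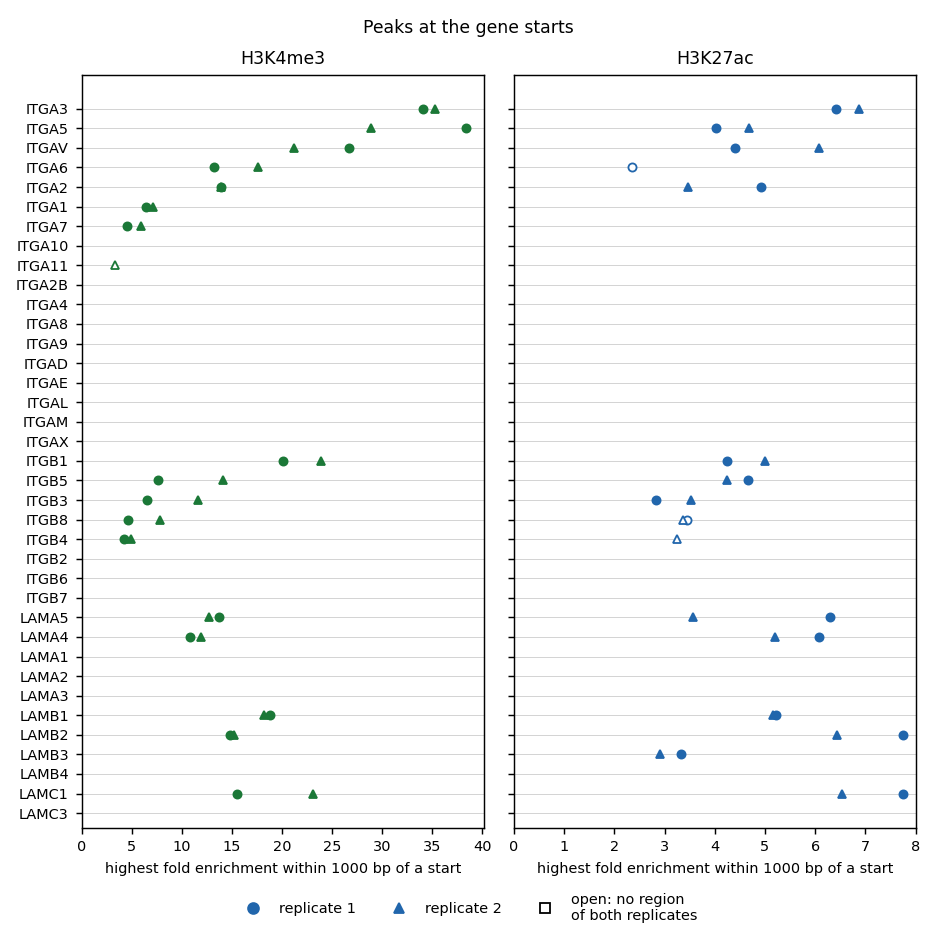
Highest fold enrichment within 1000 bp of a gene start (horizontal axes) for H3K4me3 and H3K27ac in the integrin and laminin genes reported here, with circles for replicate 1 and triangles for replicate 2. Filled symbols belong to a reproducible region and open ones do not. The leukocyte integrins ITGAD, ITGAE, ITGAL, ITGAM, ITGAX, ITGB2 and ITGB7 have no symbol at all.

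Across the 17 members with H3K4me3 at the start, the median fold enrichment was 13.9, against 15.8 over the 11795 coding genes with such a region. The members' regions were wider, with a median of 2580 bp, against 1794 bp. For H3K27ac at the start, the members' median was 4.90 over 14 genes, against 4.43 over 8936, with median widths of 1240 bp and 791 bp. These are descriptions of single genes in 2 replicates, and no test was made of them.

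Marks in a wider window, the gene span plus 50 kb on each side, were more common than at starts. H3K4me1 regions were found in the windows of 31 members (81.6%), against 52.6% of all coding genes, and H3K27ac regions in 31 (81.6%), against 71.6%. H3K4me3 was found in 32 windows (84.2%), against 78.2%. Member genes are long, with a median span of 79243.5 bp, against 24170.5 bp for all genes, and a longer window holds more regions. Among genes of at least 50 kb, H3K4me1 was in the windows of 22 of 26 members (84.6%), against 65.4%, H3K27ac in 20 (76.9%), against 73.6%, and H3K4me3 in 20 (76.9%), against 81.2%. H3K27ac away from any H3K4me3 region, a pattern known from enhancers, was in 24 of 38 windows (63.2%), against 31.3%, and among genes of at least 50 kb in 17 of 26 (65.4%), against 35.3%. In the gene span alone, H3K4me1 was in 26 members (68.4%), against 24.8%, H3K27ac in 20 (52.6%), against 46.9%, H3K4me3 in 21 (55.3%), against 61%, and H3K27ac away from H3K4me3 in 14 (36.8%), against 11.6%. For spans of at least 50 kb, H3K4me1 was in 19 of 26 members (73.1%), against 49%, and H3K27ac away from H3K4me3 in 12 (46.2%), against 23%. H3K27ac was in 16 of these 26 spans (61.5%), against 58.1%, and H3K4me3 in 14 (53.8%), against 70.9%.

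**Figure D2:**
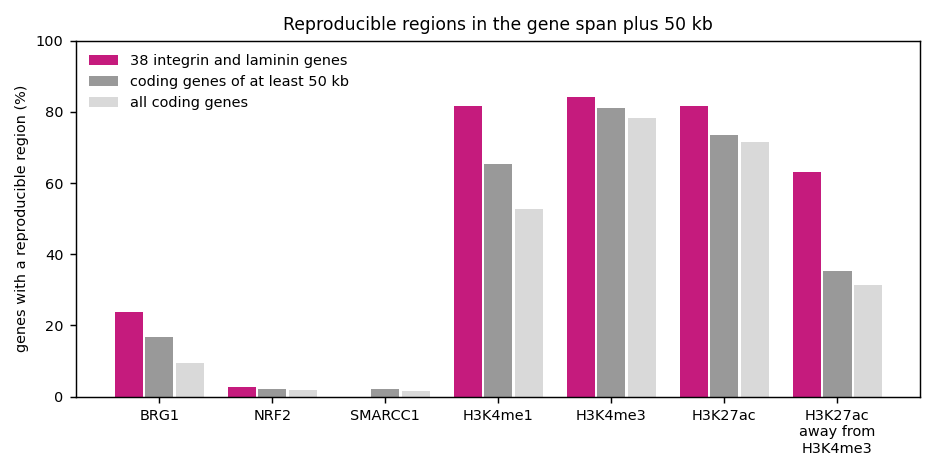
Share of genes (vertical axis, percent) with a reproducible region in the gene span plus 50 kb, by target, for the 38 integrin and laminin genes, coding genes of at least 50 kb and all coding genes. The members stand highest above both sets of genes for H3K27ac away from H3K4me3, at 63.2%, against 35.3% and 31.3%, while SMARCC1 has no member.

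The window also takes in neighbours, and 35 of the 38 windows hold another coding gene. Of the 93 H3K4me3 regions counted over members, 59 lay outside the member's span at the start of another gene, as did 54 of 208 H3K27ac regions, and 5 of 160 H3K4me1 regions. A further 80 H3K4me1 regions lay in a member's own span away from its start. Some of the highest H3K4me3 values of windows therefore belong to other genes: 34.1 and 28.8 in the ITGAE window, at NCBP3, and 28.7 and 31.9 in the LAMA5 window, at ADRM1. ITGA3 and ITGA5 had their highest values at their own starts. The highest H3K27ac of the ITGB7 window, at 7.71 and 7.19, was at the start of SLC61A1.

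**Figure D3:**
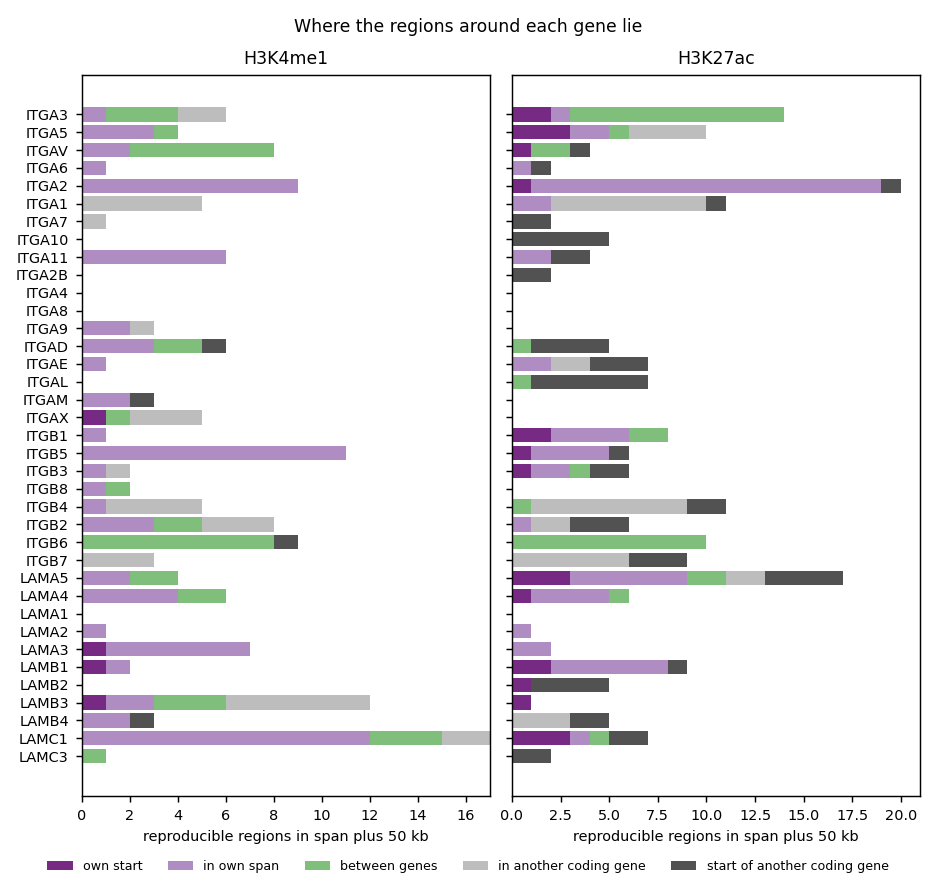
Number of reproducible H3K4me1 and H3K27ac regions (horizontal axes) in the span plus 50 kb of each gene reported here, coloured by place. ITGA2 holds 19 of its 20 H3K27ac regions in its own span, whereas all 10 of ITGB6 lie between genes.

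Acetylated regions inside the span were most numerous in ITGA2, the collagen receptor subunit. It held 19 H3K27ac regions, rank 40 of 19974 coding genes, at 18.0 per 100 kb of span. Of its 20 regions in the window, 17 met no H3K4me3, and its highest had 7.1 and 7.17. H3K4me1 regions, 9 in all, lay 6.56 to 41.0 kb along the gene from its start. LAMA5 and LAMB1 held 7 H3K27ac regions each in their spans, and ITGB1, ITGB5 and LAMA4 5 each. Over all members, regions in spans came to 1.81 per 100 kb for H3K27ac and 2.08 for H3K4me1, against 1.48 and 1.23 over all coding genes. ITGA2 supplied 19 of the members' 72 H3K27ac regions, and without it the members had 1.37 per 100 kb, below all coding genes. Without LAMC1, which supplied 12 of the 83 H3K4me1 regions, they had 1.84 per 100 kb of H3K4me1. Among genes of at least 50 kb, with ITGA2 and LAMC1 included, members had 1.78 per 100 kb for H3K27ac, against 0.954. For H3K4me1 the densities of these longer genes were 1.86 in members, against 1.17.

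H3K4me1 was most frequent in LAMC1 and ITGB5. LAMC1 had 12 regions in its span, rank 182 of the coding genes, with a highest fold enrichment of 5.89 and 6.30. ITGB5, the ITGAV partner that binds vitronectin, had 11, rank 211, with 6.34 and 5.86. ITGA3 had its highest H3K4me1, at 6.15 and 5.47, between genes 18264 bp outside the span. Its H3K27ac was the highest of all member windows, at 9.43 and 9.83, in its own span 7855 bp from the nearer end of the gene, and 11 of its 14 H3K27ac regions lay between genes. The strongest H3K4me1 region of LAMA3, within its span, had 6.13 and 5.18.

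ITGB6, whose protein epithelia raise in wounds and carcinomas, had its acetylation upstream of the gene. Its start had none, and its span held no H3K27ac or H3K4me1 region. Between 4879 and 28190 bp upstream lay 10 H3K27ac regions, the highest with 7.92 and 7.99 at chr2:160221231-160222545, and 7 of its 9 H3K4me1 regions. All 10 lay between genes, and none met an H3K4me3 region. The only H3K4me3 region of the window, at 9.76 and 10.3, was at the start of PLA2R1 on the other side. ITGB4 likewise had 11 H3K27ac regions in its window and 0 in its span, of which 8 were in other genes.

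No mark was found anywhere in the window of ITGA4, ITGA8 and LAMA1, 3 of 38 members (7.89%), against 14.8% of all coding genes and 10.1% of those of at least 50 kb. ITGA4 had 1 H3K4me1 peak in replicate 2, at 3.63, and ITGA8 and LAMA1 had no mark peak in any library. ITGA8 spans 205969 bp and LAMA1 176056 bp. By comparison, ITGA2 has 19 acetylated regions in 105428 bp.

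**Figure D4:**
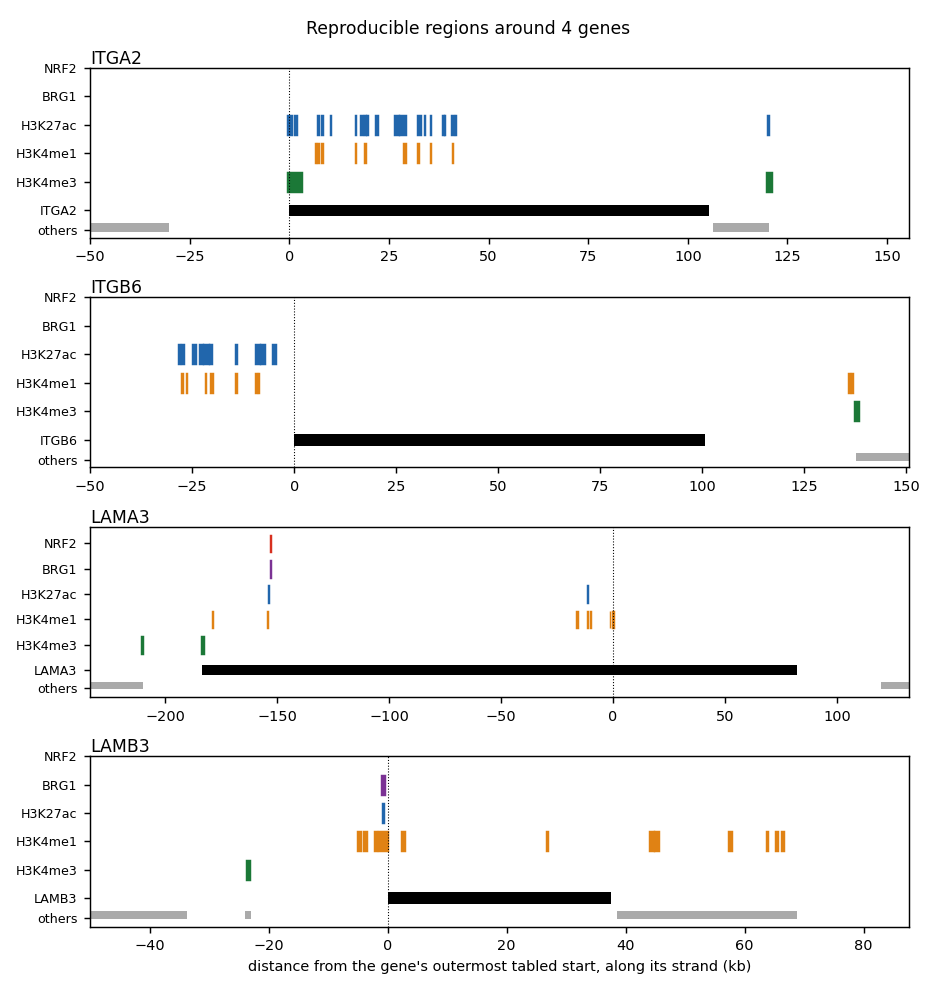
Reproducible regions around ITGA2, ITGB6, LAMA3 and LAMB3, plotted by distance from the outermost tabled start along the gene's strand (horizontal axes, kb), with the member's span in black and other coding genes in grey. Most ITGA2 regions lie within the gene, and the ITGB6 H3K27ac regions lie upstream of it. LAMA3 and LAMB3 have BRG1 sites, centred 153163 bp and 766 bp upstream of the tabled start. The LAMA3 site is within the span of the gene, because the tabled LAMA3 start lies inside that span.

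BRG1 sites were near 6 of the 12 laminin genes and 3 of the 26 integrin genes, against 9.32% of all coding genes and 16.8% of those of at least 50 kb. A reproducible BRG1 region lay in the windows of 9 of the 38 members (23.7%), against 9.32% of all coding genes: 6 laminins (LAMA2, LAMA3, LAMA4, LAMB1, LAMB3, LAMB4) and 3 integrins (ITGAD, ITGAX, ITGB1). Among genes of at least 50 kb it was in 6 of 26 (23.1%), against 16.8%. No test was made of the difference between laminins and integrins, and the 2 groups were not matched for gene length. Neighbouring windows share sites, since LAMB1 and LAMB4 hold the same one and ITGAX and ITGAD another, so 10 distinct sites account for all. In the span alone, 5 members had BRG1 (13.2%), against 4.16%, and among genes of at least 50 kb 4 of 26 (15.4%), against 11.1%. Fold enrichments were modest, from 1.91 to 5.51 over both replicates.

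LAMA2, the muscle laminin alpha chain, held 3 sites in its span of 633429 bp, the longest of the members. They had 3.24 and 4.02 (chr6:129183610-129184343), 3.25 and 5.51 (chr6:129186927-129187470), and 4.47 and 4.72 (chr6:129345921-129346226). None met a reproducible mark region, although the third met H3K4me1 and H3K27ac peaks of replicate 2. LAMA4 had a site with 4.29 and 4.43 at chr6:112216885-112217151 and a weaker one, at 1.91 and 2.49, at chr6:112204123-112204509, both without marks. Both LAMA4 sites lay in its span, far from its start at 37549 and 50251 bp.

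At 2 laminin beta genes, the sites carried marks. LAMB3 had 3.64 and 5.49 at chr1:209652846-209653537, with the middle 766 bp from a start, and it was the 1 member with BRG1 at its start, against 0.586% of all coding genes. H3K4me1 and H3K27ac regions overlapped this site. LAMB1 had 5.23 and 4.29 at chr7:107995411-107995918, 7497 bp inside its gene from the start, where H3K27ac was present. Among the integrins, ITGB1 had 3.19 and 3.86 at chr10:32980325-32980874, between genes and 22095 bp outside its span, with H3K27ac, and ITGAD had 4.83 and 4.35 at chr16:31409494-31409868 in its span, with H3K4me1.

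LAMA3 was the only member with reproducible NRF2. Its NRF2 site lay in its span, with 6.67 and 5.17 at chr18:23719876-23720121. The site overlapped the BRG1 site of this gene, also in the span, with 4.36 and 3.85 at chr18:23719617-23720097. That is 1 of 38 members (2.63%), against 1.95% of all coding genes, a share near the background, and among genes of at least 50 kb 1 of 26 (3.85%), against 2.22%. No mark region overlapped the pair of sites, but H3K27ac (4.08 and 2.83) and H3K4me1 (3.58 and 2.55) regions lay beside it, centred 153970 and 154179 bp from the tabled start, where the BRG1 site is centred at 153163 bp and the NRF2 site at 153022 bp. At 3 other BRG1 sites an NRF2 peak of 1 replicate overlapped: at LAMA2 in replicate 1 (4.20), at LAMB1 in replicate 1 (3.73) and at LAMB3 in replicate 2 (4.98). The −log10 q of these peaks was 0.0934 at LAMA2, 0 at LAMB1 and 1.49 at LAMB3. The share of all BRG1 sites with such an overlap was not counted.

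SMARCC1, the other remodelling subunit, had no reproducible region in any member's window, against 1.6% of all coding genes and 2.08% of those of at least 50 kb. Single peaks were in the windows of ITGAL (2.74), LAMA3 (2.56) and LAMB2 (2.75) in replicate 1 and ITGA11 (3.57) in replicate 2. The LAMA3 peak overlapped a BRG1 peak of replicate 2 (3.97) and an H3K4me1 region. The whole data held 169 reproducible SMARCC1 regions, and a count of 0 among 38 genes stands close to that background. In both SMARCC1 libraries the highest −log10 q of any peak was 0.

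**Figure D5:**
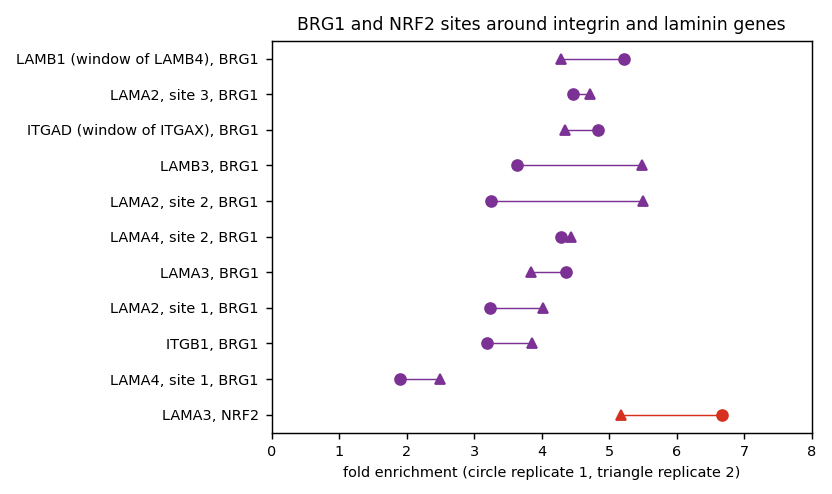
Fold enrichment (horizontal axis) of the 10 BRG1 sites, in purple, and the NRF2 site, in red, in member windows, with circles for replicate 1 and triangles for replicate 2 joined by a line. Most BRG1 sites lie between 3 and 6, and the replicates of LAMB3 and of the second LAMA2 site lie furthest apart.

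The BRG1 count depends on the library. Replicate 1 alone had peaks in 11 member windows, against 14.1% of coding genes, and replicate 2 alone in 21, against 26.3%. Replicate 2 holds 6610 peaks and replicate 1 3213. Few sites met a strict threshold. At −log10 q of at least 2 in both replicates, 2 of 38 members remained (LAMA3 and LAMA4), against 0.471% of all coding genes. At −log10 p of at least 5, 5 of 38 did (ITGAX, ITGAD, LAMA2, LAMA3 and LAMA4), against 2%. No comparison with genes of at least 50 kb was made at these thresholds. The ITGAX and ITGAD windows share their site.

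Proteins that act with integrins and laminins were viewed in the same way. Of 19 focal adhesion genes, which link integrins to actin, 16 had both H3K4me3 and H3K27ac at the start, against 43.9% of all coding genes, and FERMT3 (the kindlin of blood cells), TNS1 and FERMT1 had no mark there. BRG1 was in the windows of 6 of the 19, against 9.32% of all coding genes and 16.8% of those of at least 50 kb. The sites of FERMT2 (3.48 and 5.37), LIMS1 (2.81 and 3.86) and ACTN4 (strongest 3.20 and 3.62) lay in the span, and those of ILK (2.79 and 2.93), TNS3 (3.49 and 4.5) and PTK2 (3.19 and 3.86) outside it. SMARCC1 was in the windows of FERMT2 (2.60 and 2.61), BCAR1 (3.17 and 3.18), ACTN4 (strongest 2.96 and 2.91) and TNS3 (3.07 and 3.31). These are 4 of 19, against 1.6% of all coding genes and 2.08% of those of at least 50 kb. They rest on weak peaks, since no SMARCC1 peak in either library had a −log10 q above 0. NRF2 was in the window of TLN1 alone (3.34 and 2.26), 38696 bp outside its span, against 1.95%.

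Of 11 genes of basement membranes and hemidesmosomes, 9 had H3K4me3 at the start, against 59.1% of all coding genes, and 7 both promoter marks (AGRN, HSPG2, NID1, CD9, DAG1, DST, PLEC), against 43.9%. COL17A1, the hemidesmosome collagen, and BCAM had no mark at the start. BRG1 was in the windows of 2 of the 11, against 9.32% of all coding genes and 16.8% of those of at least 50 kb. In the COL17A1 window a BRG1 region with 7.08 and 7.38 lay 8012 bp outside the span, and its fold enrichment was above that of every site in the windows of the integrin and laminin genes. DST, which ties hemidesmosomes to keratin, held 7 BRG1 regions in its span, and the one with the highest mean had 3.53 and 5.19. Neither list was tested, and both were put together by known role.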

How the data were processed

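Peaks of 12 CUT&RUN libraries, 2 replicates of 6 targets, were analysed. The IgG library was not used here. The submitters' processing notes list MACS2 2.2.7.1, Picard 2.23.9, SAMtools 1.9 and Bowtie2 2.4.1 with GRCh38, without roles or settings, and whether peaks were called against IgG is not given in the sources used here. The deposited lists were called per library. Each peak carries, as deposited, a fold enrichment (a ratio), a −log10 p, a −log10 q and a score, and the authors' fold enrichment was used unscaled. The deposited score and the summit offset were not used. Depth is unknown.

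Reproducible regions were merged peaks of both replicates, overlapping by at least 1 bp, with at least 1 peak of each. Regions were counted in gene spans plus 50 kb and within 1000 bp of starts, with Python 3.11.15, NumPy 2.4.6, pandas 2.3.3 and matplotlib 3.10.9. Genes, spans and promoters came from RefSeq GRCh38.p14, whose table gave a start for 26 of 38 members. The counting was tested on simulated data.

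No test across genes was made, since there is 1 condition. The rule for named members took those with a factor region in the window, the 5 highest per mark in the window, and those with no mark. Members with a mark at the start are also given with values, and these, the region counts named and the partner genes named were chosen after their values were seen. Values of 1 member are not reported here, though it stays in the counts. The members, partner lists and marker lists were chosen with earlier results of these data known. Alternatives were other windows, thresholds on peaks, overlaps, either replicate and each replicate left out. Leaving out regions at other genes' starts, using either end of every gene, the comparison with genes of at least 50 kb that with genes of a tabled start, and densities without the member with the most regions were added after seeing the data.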

Additional observations from a re-analysis of the deposited data

How the results depend on the processing

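Of 92 alternatives over these counts, 69 stayed within 1.5 times and 23 moved. Shares in brackets are those of all coding genes under the same setting. The BRG1 count of 9 (9.32%) was 5 in the span alone (4.16%), 2 at −log10 q of at least 2 (0.471%), 5 at −log10 p of at least 5 (2%), 21 with peaks of either replicate (29.2%) and 11 to 21 with a replicate left out (14.1% to 26.3%). The NRF2 count of 1 (1.95%) was 2 with 100 kb windows (3.04%), 5 with either replicate (10.4%) and 2 to 4 with a replicate left out (4.69% to 8.05%). The SMARCC1 count of 0 (1.6%) was 4 with either replicate (8.62%) and 1 to 3 with a replicate left out (5.16% to 5.49%). H3K4me1 in 31 windows (52.6%) fell to 15 at −log10 p of at least 5 (14.8%) and 6 at −log10 q of at least 2 (7.75%). In the span alone, H3K4me3 fell to 21 members (61%), against 32, H3K27ac to 20 (46.9%), against 31, and H3K27ac away from H3K4me3 to 14 (11.6%), against 24. H3K4me1 at 4 starts (5.52%) was 2 within 500 bp (3.49%), 7 within 2000 bp (9.06%), 0 at −log10 q of at least 2 (0.386%) and at −log10 p of at least 5 (0.816%), 7 with either replicate (9.32%) and 4 to 7 with a replicate left out (6.71% to 7.95%). The causes were not tested. No paired analysis was possible because there is 1 condition, and counts over merged replicates come from no test.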
